A study of Homo sapiens with 18 samples.

Results

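The genes described here are the long intergenic noncoding RNA genes (LINC genes) with a measurable level in untreated MM1 cells. They were chosen by name and by untreated level: rows of the raw count table with a symbol of LINC followed by digits, with LINC01518 left out, and with a median of at least 20 raw counts over the 6 untreated libraries. The rule kept 108 members out of 2107 LINC symbols and 43735 genes, and 1065 of the LINC symbols had 0 counts in all 18 libraries. Because untreated counts chose the members, their untreated levels are a description, and members close to the minimum tend to have been read high without treatment. The members just inside the minimum were LINC01521, LINC02245 and LINC01006, with a median of 20 counts, and those just outside were LINC01374 with 19 and LINC01431 with 18. A minimum over the 6 RSL3 libraries would have kept 102 genes, 98 of them the same, with LINC01374, LINC01431, LINC01484 and LINC01588 as the 4 that enter.

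The libraries came from 2 human multiple myeloma lines of the same origin, MM1S, which is sensitive to glucocorticoids, and MM1R, which is resistant to them. Each line was left untreated, given 5 µM RSL3 for 3 h, or given 2 µM Fer-1 for 2 h ahead of the same RSL3 treatment. RSL3 inhibits GPX4, the enzyme that detoxifies lipid peroxides, and so starts ferroptosis, an iron-dependent cell death, while Fer-1 (ferrostatin-1) traps lipid radicals and blocks it. Each of the 6 groups held 3 libraries of total RNA, taken at passages 4, 6 and 7 of MM1R and at passages 16, 22 and 23 of MM1S, so a passage holds 1 library of each treatment. Within each line the replicates are passages, and the labels do not say whether these came from 1 culture. No passage is shared by the lines, and p-values measure the spread between passages of a line. The main test does not pair libraries by passage, so that spread includes differences between passages. A fit that compares libraries within passages is given further on.

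Long intergenic noncoding RNAs are transcripts without a long open reading frame that lie between protein-coding genes, and many are spliced, capped and polyadenylated like messenger RNAs. Some act on neighbouring genes from the site where they are made, some bind proteins, RNAs or microRNAs elsewhere in the cell, and for most no role is known. They are often expressed at a low level and in few cell types, and several names in this class have since been replaced by names that tell a function or a neighbour. Among the members, 14 are listed under another current RefSeq symbol, for example LINC01578 (CHASERR), LINC01136 (BTG2-DT), LINC00888 (SNHG33), LINC01481 (PRANCR) and LINC00565 (SWINGN). The 14 include LINC02804, which is listed under the protein-coding gene GPR89B and is of uncertain identity.

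Total counts lay between 17635438 and 19368343 per library, and 14281 genes passed the filter on low counts, all 108 members among them. Plasma cell markers were strongly expressed in every library (9193 to 18547 CPM in sum over 9 genes, where CPM are counts scaled to library size with TMM factors) and 13 markers of other blood, stromal or epithelial cells summed to 28.1 to 48.1 CPM, 2 of them called higher after RSL3 in the average. Of 12 stress genes that earlier results of these same libraries had picked, 12 in MM1R and 11 in MM1S were called higher after RSL3, which is no independent evidence. MM1R Fer-1 + RSL3 replicate 2 carried 51.6% of the MM1S level over 7 genes that separate the lines, against -0.262% to 0.122% in the other MM1R libraries, and the Fer-1 results are given with and without it. In MM1S RSL3 replicate 1, the heat shock gene HSPA6 reached 4321 CPM, against 64.5 and 82.8 CPM in the other MM1S RSL3 libraries, and that library had the lowest TMM factor, 0.864. MM1R RSL3 replicate 3 was also high, with 1386 CPM against 176 and 92.4 CPM.

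The members held 0.0713% to 0.109% of all counts in a library. The 5 members with most counts took 32.4% of the members' counts and the 10 with most took 47.7%. Median untreated counts ran from 20 to 1228 with a median of 58.8, and 1 member was at 0 in any library. Divided by annotated exon length, the highest untreated levels were those of LINC02528 (19.6 CPM per kb), LINC00996 (17.2) and LINC02067 (17.0). LINC02528, now SIMALR, lies on chromosome 6 at 138264216 to 138278794 in hg19, 90443 bp from the start of TNFAIP3, which encodes an inhibitor of NF-κB signalling. LINC01145 and LINC00674 followed with 13.9 and 13.4 CPM per kb, but their annotated exons hold 143 and 160 bases, so those figures rest on very short models.

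The members with the highest untreated CPM, not corrected for length, were LINC01000, LINC01578, LINC02067, LINC00888 and LINC00996. LINC00996 had group means between 32.6 ± 0.68 and 39.9 ± 1.62 CPM (SD, n = 3), and its log2 fold change for RSL3 averaged over the lines was 0.01 ± 0.08 (SE). LINC02067 stood at 54.9 ± 8.71 CPM in untreated and 51.6 ± 7.28 CPM in RSL3-treated MM1R cells, and MM1S cells had 41.6 ± 9.46 and 46.8 ± 9.83 CPM. LINC01000 had 66.3 ± 20.4 and 69.7 ± 12.2 CPM in untreated MM1R and MM1S cells, and its highest library was that of the lowest passage in all 6 groups.

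The rule did not use passage. The library of the lowest passage, 4 in MM1R and 16 in MM1S, had the highest summed level of the members in each of the 6 groups. In untreated MM1R cells the sum was 890 CPM at passage 4, 774 CPM at passage 6 and 773 CPM at passage 7. Untreated MM1S cells gave 831 CPM at passage 16, 712 CPM at passage 22 and 693 CPM at passage 23. With RSL3 the sums were 1074, 822 and 792 CPM in MM1R and 1017, 828 and 741 CPM in MM1S. The share of raw counts had the same order at the top, for example 0.0925% against 0.0768% and 0.0749% in untreated MM1R cells.

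Gene by gene, 24 of the 108 members (22.2%) had their highest library at the lowest passage in all 6 groups, against 5.86% of all genes tested. None of the members (0) had its lowest library there in all 6 groups, against 7.88% of all genes tested. These are counts of an order within groups with no test. The labels give only passage numbers, so passage, culture time and any handling that went with it cannot be told apart.

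LINC00494 had 33.4, 23.3 and 16.1 CPM at passages 4, 6 and 7 of untreated MM1R cells and 24.6, 16.1 and 11.2 CPM at passages 16, 22 and 23 of untreated MM1S cells. LINC01252 was at 3.59, 1.96 and 1.04 CPM in untreated MM1R cells and at 2.69, 0.47 and 0.452 CPM in untreated MM1S cells. LINC00674, on chromosome 17 at 66098049 to 66110668 was near the lowest level that counts can show in most MM1S libraries. Its MM1S libraries were at 2.85, 1.18 and 2.75 CPM at passage 16 (untreated, RSL3, Fer-1 + RSL3) and between 0 and 0.16 CPM at passages 22 and 23. In MM1R it stood at 4.78, 3.21 and 1.8 CPM without treatment, so its MM1R and MM1S levels overlapped only through passage 16. The genes in this paragraph were chosen after their values had been seen.

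**Figure D1:**
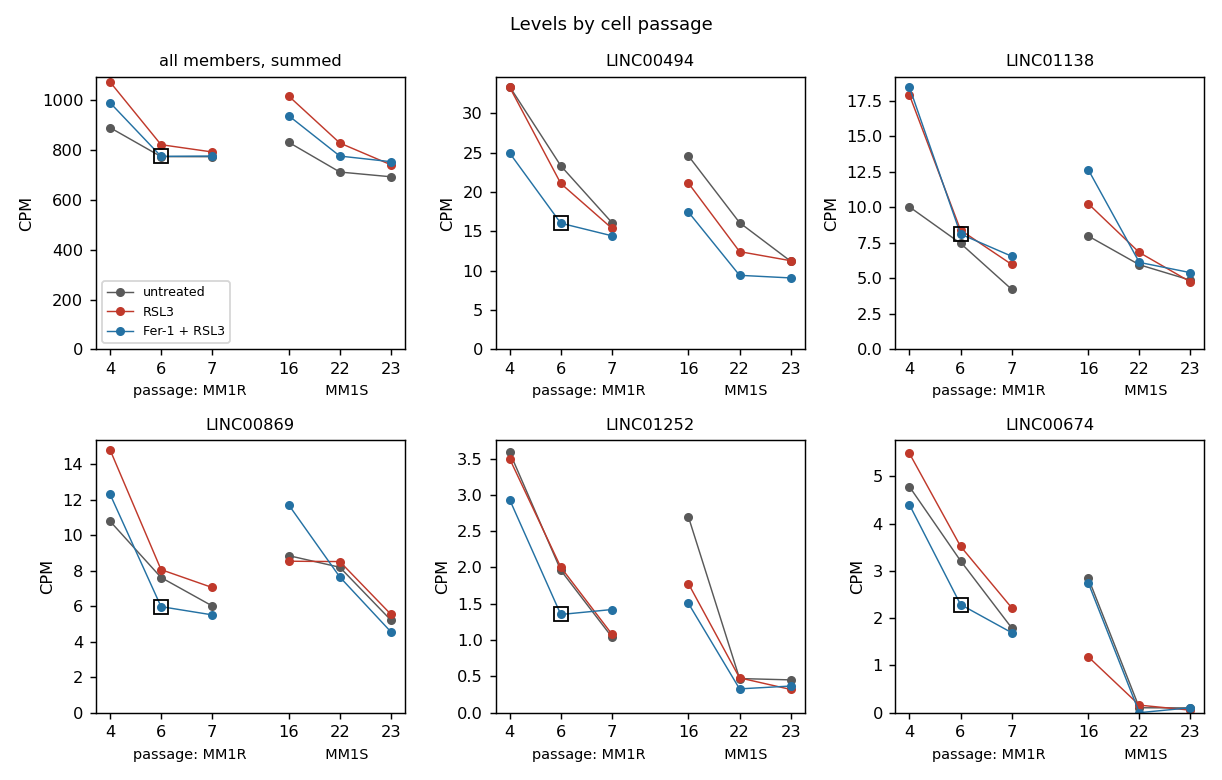
Level in CPM (vertical axis) of all members summed and of 5 members, by cell passage (horizontal axis) in MM1R and MM1S, with 1 point per library, coloured by treatment and joined within a treatment; the open square marks MM1R Fer-1 + RSL3 replicate 2. The lowest passage of each line has the highest value in every treatment.

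The first comparison asks how the LINC genes responded to RSL3. In MM1S cells 2 members were called higher, LINC00673 and LINC00861, and 0 lower, where a call needs a log2 fold change over 1 in size and an FDR under 0.05, the p of edgeR's quasi-likelihood test adjusted by Benjamini-Hochberg over all genes tested. In MM1R cells 1 member, LINC01311, was called lower and 0 were called higher. Averaged over both lines, 1 member, LINC00861, was called higher and 0 lower. The shares of all tested genes called in the same way were 1.35% higher and 0.259% lower in MM1S, 1.06% higher and 0.14% lower in MM1R, and 2.79% higher and 0.441% lower in the average. With 0 to 2 members called in each direction, these counts are too small to be set apart from the background shares.

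Leaving out the fold threshold, 7 members were higher in the average at an FDR under 0.05 (6.48%, against 8.7% of all tested genes), namely LINC00339, LINC00673, LINC00861, LINC01061, LINC01136, LINC01578 and LINC02642. Another 2 were lower, LINC01311 and LINC01963 (1.85%, against 6.81%). Of these 9, LINC00339, LINC01061, LINC01136, LINC01963 and LINC02642 were named because they passed this looser rule, after their values had been seen. At an unadjusted p under 0.05, 18 members were higher (16.7%, against 16%) and 5 lower (4.63%, against 14.2%). Members lower in 6 of 6 passages numbered 3 (2.78%, against 14.9%), while 17 were higher in 6 of 6 (15.7%, against 13.8%).

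LINC00673, also called SLNCR, is a long transcript known for a part in the breakdown of the phosphatase PTPN11. In MM1S cells it had 27.7, 24.8 and 27.9 CPM at passages 16, 22 and 23 without treatment and 65.7, 46.9 and 52.3 CPM with RSL3. In MM1R cells it went from 17.7, 20.1 and 23.7 CPM at passages 4, 6 and 7 to 39.6, 30.5 and 32.9 CPM. All RSL3 libraries lay above all untreated libraries of their line. The log2 fold change was 1.04 ± 0.15 (SE, FDR = 0.00278 by edgeR's quasi-likelihood test) in MM1S and 0.74 ± 0.15 (FDR = 0.0144) in MM1R, and the lines' responses differed by -0.29 ± 0.21 with an FDR of 1. In MM1R its FDR passed 0.05 when replicate 1 or 2 of the untreated cells or replicate 1 of the RSL3-treated cells was left out, up to 0.0849.

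LINC00861, on chromosome 8 at 126871965 to 127305033, had the largest averaged rise of the 108 members. Without treatment it was at 2.69, 2.61 and 3.61 CPM in MM1S and at 2.91, 2.07 and 1.62 CPM in MM1R. With RSL3 it was at 12.9, 5.70 and 6.94 CPM in MM1S and at 6.56, 2.76 and 7.92 CPM in MM1R. The MM1S groups did not overlap, while the lowest MM1R RSL3 library, at passage 6, lay below the highest untreated one. The averaged log2 fold change was 1.44 ± 0.26 (edgeR FDR = 0.00155), with 1.51 ± 0.36 (FDR = 0.0285) in MM1S and 1.38 ± 0.37 (FDR = 0.0504) in MM1R. The MM1S call was lost without any of the 3 untreated MM1S libraries or without MM1S RSL3 replicate 1, which gave the highest FDR, 0.162, whereas the averaged call held in all 18 such fits.

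LINC01136, now BTG2-DT, is transcribed away from BTG2, which encodes an antiproliferative factor. It had 2.08, 1.47 and 2.20 CPM in untreated and 6.45, 2.71 and 3.02 CPM in RSL3-treated MM1R cells. In MM1S cells it had 2.02, 2.19 and 2.01 CPM and then 3.75, 2.66 and 2.45 CPM. The groups did not overlap in either line, the largest ratio was that of passage 4, and the averaged log2 fold change was 0.79 ± 0.24 (edgeR FDR = 0.0315). The FDR stayed under 0.05 in 11 of 18 fits that left out 1 library, and was 0.103 with a log2 fold change of 0.54 without MM1R RSL3 replicate 1.

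LINC02642, on chromosome 10 at 7486260 to 7514002, went from 1.92, 1.20 and 1.91 to 4.30, 2.44 and 3.36 CPM in MM1R. In MM1S it went from 0.881, 0.784 and 1.15 to 2.37, 1.28 and 1.60 CPM. Again no RSL3 library lay as low as an untreated one, and the averaged log2 fold change was 0.94 ± 0.22 (edgeR FDR = 0.00994). LINC01061 had an average of 0.70 ± 0.22 (FDR = 0.0442, under 0.05 in 8 of 18 fits that left out 1 library and 0.113 without MM1R RSL3 replicate 1), from 5.87, 3.81 and 5.04 to 10.1, 6.66 and 7.58 CPM in MM1R and from 4.56, 3.13 and 2.71 to 6.24, 5.70 and 4.70 CPM in MM1S. These 4 genes, LINC00673, LINC01061, LINC01136 and LINC02642, were the members whose RSL3 libraries all lay above the untreated ones in both lines (3.7%, against 6.13% of all tested genes).

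LINC01578, now CHASERR, lies beside CHD2, which encodes a chromatin remodeller, and is known to hold back CHD2 expression in cis. It had 44.6, 46.6 and 49.2 CPM in untreated and 79.0, 56.8 and 65.4 CPM in RSL3-treated MM1R cells. In MM1S cells it had 55.0, 54.3 and 48.5 CPM and then 96.5, 71.3 and 54.4 CPM, where the lowest RSL3 library fell just under the highest untreated one. Its averaged log2 fold change was 0.51 ± 0.12 (edgeR FDR = 0.0107), and that of CHD2 was 0.43 ± 0.15 (FDR = 0.0643). The annotated span of LINC01578 overlaps CHD2 on the same strand, so how reads were shared between them cannot be told from the counts. LINC00339, on chromosome 1 at 22351051 to 22357716, had an average of 0.44 ± 0.10 (FDR = 0.009), with untreated means of 14.4 ± 2.32 CPM in MM1R and 13.4 ± 0.695 CPM in MM1S and RSL3 means of 19.3 ± 3.42 and 18.4 ± 1.63 CPM.

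LINC01963 fell in both lines. It is on chromosome 2 at 217081768 to 217084915. Untreated MM1R cells had 20.1, 18.8 and 22.7 CPM and RSL3-treated ones 14.0, 14.3 and 14.3 CPM. Untreated MM1S cells had 27.6, 19.2 and 19.4 CPM and treated ones 12.9, 15.6 and 14.9 CPM. The groups did not overlap in either line (1 member, 0.926%, against 5.52% of all tested genes), and the averaged log2 fold change was -0.57 ± 0.10 (edgeR FDR = 0.0012).

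LINC01311, on chromosome 22 at 19158908 to 19160364, was at 2.34, 1.74 and 2.14 CPM in untreated MM1R cells and at 0.699, 1.08 and 1.03 CPM with RSL3. MM1S cells were at 1.66, 1.36 and 1.05 CPM and then at 1.05, 1.07 and 0.907 CPM, where the lowest untreated library lay within the RSL3 range. The log2 fold change was -1.14 ± 0.27 (edgeR FDR = 0.0314) in MM1R and -0.43 ± 0.28 (FDR = 0.432) in MM1S, and their difference of -0.72 ± 0.39 had an FDR of 1. The MM1R call held in 13 of 18 fits that left out 1 library. LINC02354 had a fall of similar size in both lines, -1.13 ± 0.54 and -1.19 ± 0.60, but its counts are low and its averaged FDR was 0.0603.

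**Figure D2:**
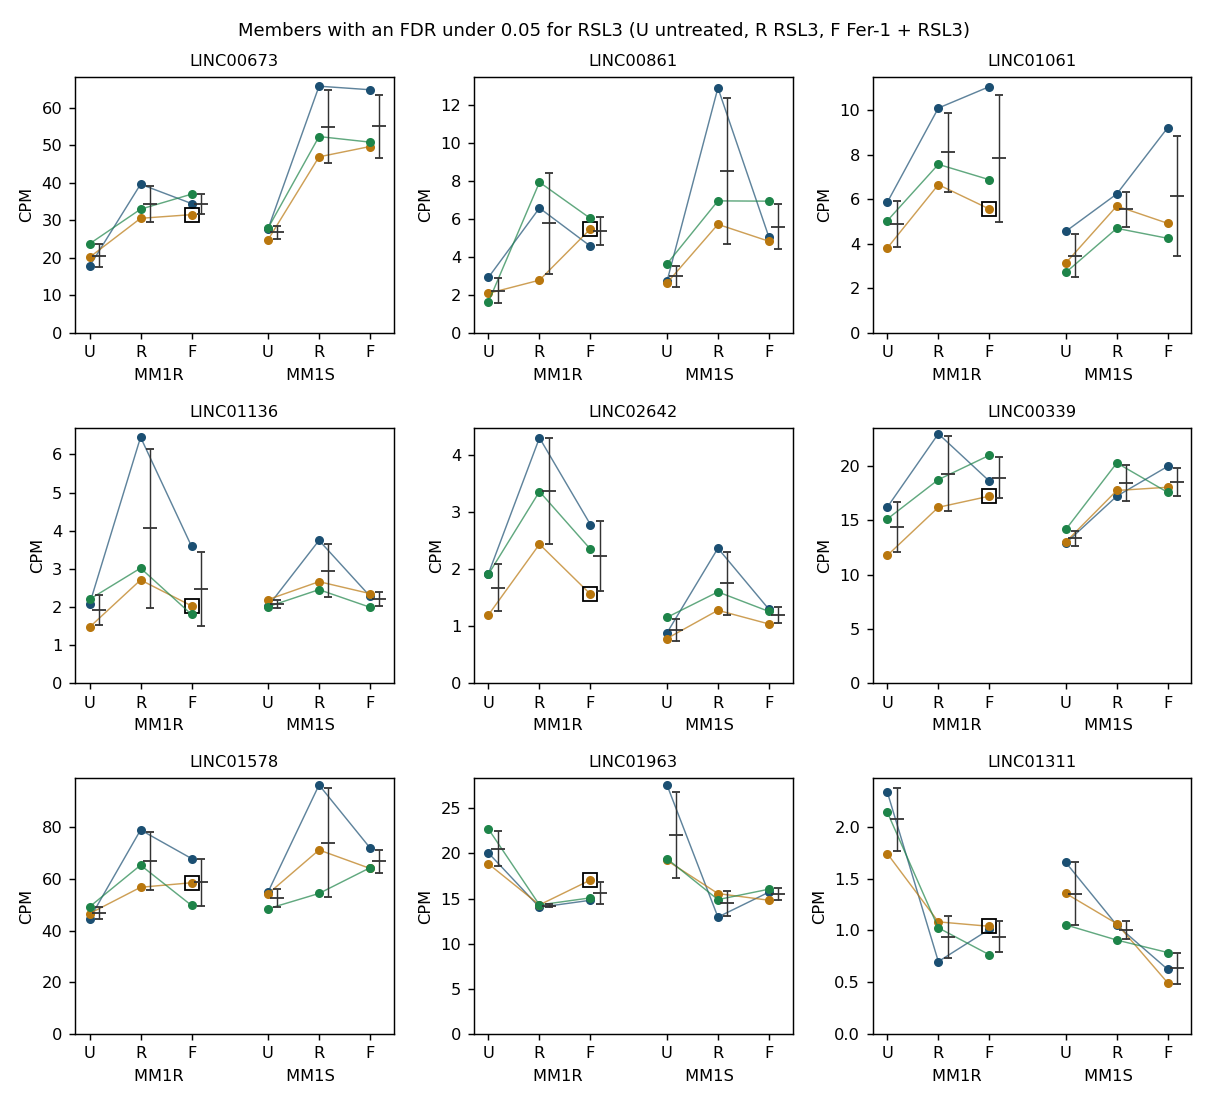
Level in CPM (vertical axis) of the 9 members with an averaged FDR under 0.05, in untreated (U), RSL3 (R) and Fer-1 + RSL3 (F) libraries of MM1R and MM1S; points are libraries joined within a passage (blue passage 4 or 16, orange 6 or 22, green 7 or 23), bars are mean and SD, and the open square is MM1R Fer-1 + RSL3 replicate 2. LINC01136 and LINC02642 are lower with Fer-1 than with RSL3 alone in each passage, though neither passed the test. Both were picked for their rise with RSL3, so the same RSL3 libraries favour a fall here.

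The promoter windows of the 4 members with RSL3 libraries above all untreated ones in both lines are shown so that the start sites can be compared. Each runs from 250 bases before to 50 after the RefSeq start (RefSeq table, GRCh38.p14), was found without mismatch in GRCh37 (hg19), lies on the minus strand and is written 5′ to 3′ in the direction of the gene. Capitals mark letters that match a motif searched, and each motif is spelled out after the sequences. In hg19 the windows lie at chr17:70588894-70589193 for LINC00673, chr4:120331766-120332065 for LINC01061, chr1:203274404-203274703 for LINC01136 and chr10:7513953-7514252 for LINC02642.
LINC00673: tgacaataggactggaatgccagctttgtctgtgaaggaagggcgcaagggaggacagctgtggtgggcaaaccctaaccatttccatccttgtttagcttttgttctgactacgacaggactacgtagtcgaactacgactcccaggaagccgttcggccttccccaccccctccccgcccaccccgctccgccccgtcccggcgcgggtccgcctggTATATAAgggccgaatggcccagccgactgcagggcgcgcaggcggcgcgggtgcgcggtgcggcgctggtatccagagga
LINC01061: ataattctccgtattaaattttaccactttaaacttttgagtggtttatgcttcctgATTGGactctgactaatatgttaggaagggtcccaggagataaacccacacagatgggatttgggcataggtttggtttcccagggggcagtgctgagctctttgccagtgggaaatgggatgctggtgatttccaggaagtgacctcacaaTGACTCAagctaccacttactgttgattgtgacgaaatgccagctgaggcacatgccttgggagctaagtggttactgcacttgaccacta
LINC01136: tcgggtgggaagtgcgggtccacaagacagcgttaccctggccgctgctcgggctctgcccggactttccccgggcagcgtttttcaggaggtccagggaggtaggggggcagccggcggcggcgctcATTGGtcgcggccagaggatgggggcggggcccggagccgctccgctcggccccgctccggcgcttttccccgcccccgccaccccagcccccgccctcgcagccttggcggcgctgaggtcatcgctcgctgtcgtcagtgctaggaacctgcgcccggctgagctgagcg
LINC02642: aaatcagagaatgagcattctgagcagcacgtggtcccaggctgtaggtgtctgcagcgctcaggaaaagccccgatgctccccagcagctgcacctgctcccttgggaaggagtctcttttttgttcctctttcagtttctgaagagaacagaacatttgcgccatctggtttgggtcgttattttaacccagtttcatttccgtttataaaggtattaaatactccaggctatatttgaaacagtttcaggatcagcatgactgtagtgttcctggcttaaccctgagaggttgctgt

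These windows differ widely in composition, with 63.3% and 73.3% G and C for LINC00673 and LINC01136 and 45.7% and 46.7% for LINC01061 and LINC02642. The letters of the TATA motif are in the window of LINC00673, those of the AP-1 motif TGANTCA and of CCAAT in that of LINC01061, those of CCAAT in that of LINC01136, and none of the motifs searched is in that of LINC02642. RefSeq promoters could be matched for 65 of the 108 members. Of these, 9 (13.8%) hold TGANTCA, on either strand, against 7.71% of all 35116 promoters in the table. TGACNNNGC, the core of the antioxidant response element, is in 15 (23.1%) against 13.3%, the cyclic AMP motif TGACGTCA in 2 (3.08%) against 1.85%, and the heat shock motif TTCNNGAA in 3 (4.62%) against 7.74%. TGATGNAA, bound by ATF4 with partners, is in 0 against 3.62%, TATANAA in 5 (7.69%) against 9.1%, and CCAAT in 26 (40.0%) against 34.6%. A match of letters is not a bound site, and some of these motifs overlap each other.

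Taken over all members, the averaged log2 fold changes for RSL3 had a median of 0.14, against 0.00 for all genes tested, and 74 of 108 (68.5%) were above 0, against 50% of all genes. By line the medians were 0.15 in MM1R and 0.16 in MM1S, with 71 members (against 50%) and 72 members (against 50.3%) above 0. The shift was uneven between passages. Within passages the median log2 ratio of RSL3 to untreated (with 0.1 CPM added) was 0.32, 0.10 and -0.01 at passages 4, 6 and 7 of MM1R and 0.18, 0.19 and 0.04 at passages 16, 22 and 23 of MM1S, and for all tested genes it lay between -0.02 and 0.01. Without MM1R RSL3 replicate 1 the MM1R median was -0.06 with 45 members above 0, and without MM1S RSL3 replicate 1 the MM1S median was 0.01 with 54 above 0. The averaged median ran from 0.02 to 0.21 when 1 library was left out, and was 0.02 with 56 above 0 without MM1R RSL3 replicate 1.

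With the passage as a block in the model, which compares libraries within passages, more members passed an FDR of 0.05 by edgeR. In the average 19 were higher (against 14.9% of all tested genes) and 5 lower (against 15.5%), with LINC02354 called lower (against 0.574%) beside LINC00861 called higher (against 3.19%). MM1R then had 8 higher (against 6.83%) and 2 lower (against 6.25%), with LINC00861, LINC01136 and LINC02642 called higher (against 2.36%) and LINC01311 lower (against 0.511%). MM1S had 9 higher (against 6.79%) and 2 lower (against 6.55%). Among those that passed in the average only with the block were LINC00888 (SNHG33), a host transcript of small nucleolar RNAs, which had a log2 fold change of 0.32 ± 0.11 and an FDR of 0.0527 without it, and LINC00528, LINC01023 and LINC01215.

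The responses of the lines were alike in direction for 79 of the 108 members (73.1%, against 73.0% of all tested genes). Across members, which are not independent replicates, the log2 fold changes of the lines had Pearson's r = 0.578 and Spearman's rho = 0.559, against 0.765 and 0.636 over all tested genes. The lines share no library. A test of the difference between the lines' responses called 0 members (0 of all genes, 0.0%, by edgeR), and 1 member had an unadjusted p under 0.05, on the lower side in MM1R (0.926%, against 0.651% of all tested genes), with 0 on the other side (against 0.903%). That member was LINC00672, with 1.87, 1.58 and 1.10 CPM in untreated and 0.968, 0.812 and 0.228 CPM in RSL3-treated MM1R cells, and 1.5, 0.313 and 0.903 CPM and then 1.45, 1.49 and 0.854 CPM in MM1S cells. Its log2 fold changes were -1.17 ± 0.54 and 0.47 ± 0.53, and the FDR of their difference was 1.

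**Figure D3:**
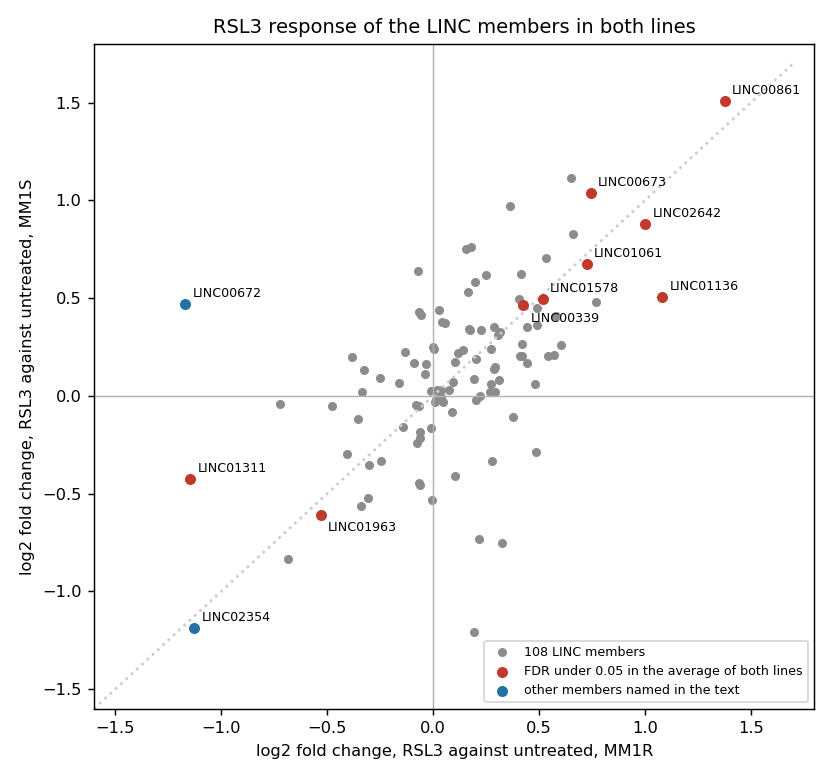
Log2 fold change of RSL3 against untreated in MM1R (horizontal axis) and in MM1S (vertical axis) for the 108 members, 1 point each; red marks members with an averaged FDR under 0.05, blue 2 others named in the text, and the dotted line equal changes. LINC00861 lies to the upper right at 1.38 and 1.51, and LINC00672 to the upper left at -1.17 and 0.47.

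The second comparison asks what a Fer-1 pre-treatment did to the members. Fer-1 + RSL3 against RSL3 alone called 0 members in MM1R, in MM1S and in the average (edgeR's quasi-likelihood test, smallest averaged FDR 0.257), and DESeq2 called 0 as well. Of all tested genes 0.056% were called lower and 0.0% higher in the average. At an unadjusted p under 0.05, 4 members were higher (3.7%, against 6.59%) and 7 lower (6.48%, against 6.2%). Without MM1R Fer-1 + RSL3 replicate 2 these were 2 higher (1.85%, against 5.05%) and 4 lower (3.7%, against 5.15%), and the genes called among all tested went from 8 to 1. The members' median was -0.13 on the log2 scale, against 0.00 for all tested genes, and 35 of 108 were above 0 (32.4%, against 50.4%). The RSL3 libraries enter this contrast and that of RSL3 against untreated with opposite signs, so the medians of these contrasts are not independent. Without MM1R Fer-1 + RSL3 replicate 2 this median was -0.09 with 40 above 0, and in MM1R alone it went from -0.10 with 36 above 0 (against 51.4%) to -0.03 with 47. Without MM1R RSL3 replicate 1 the averaged median was -0.02 with 51 above 0, and without MM1S RSL3 replicate 1 it was -0.06 with 42 above 0.

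Of the 7 members higher with RSL3 at an FDR under 0.05, none passed the test for Fer-1. For LINC00673, Fer-1 + RSL3 libraries had 34.4, 31.5 and 36.9 CPM in MM1R and 64.8, 49.6 and 50.8 CPM in MM1S. Its averaged log2 difference to RSL3 alone was 0.00 ± 0.11 (0.03 without MM1R Fer-1 + RSL3 replicate 2), and against untreated cells it was higher by 0.74 ± 0.15 in MM1R (edgeR FDR = 0.00701, and 0.80 with an FDR of 0.0157 without that library) and called at 1.04 ± 0.15 in MM1S (FDR = 0.00112). LINC00339 and LINC01061 differed from RSL3 alone by -0.01 ± 0.10 (0.02 without that library) and 0.05 ± 0.22 (0.15 without it). LINC00861 differed by -0.35 ± 0.25 (-0.36 without it) and LINC01578 by -0.17 ± 0.12 (-0.17 without it).

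LINC01136 and LINC02642 were lower with Fer-1 + RSL3 than with RSL3 in each of the 6 passages. Both were picked for high levels in the RSL3 libraries, which this contrast subtracts. A fall is thus partly built in, and their order over passages is a description. LINC01136 had 3.59, 2.03 and 1.8 CPM in MM1R and 2.28, 2.35 and 1.99 CPM in MM1S, and its log2 fold changes against untreated cells were 0.37 ± 0.34 and 0.09 ± 0.34. LINC02642 had 2.78, 1.56 and 2.35 CPM in MM1R and 1.30, 1.04 and 1.26 CPM in MM1S. Both differences averaged -0.56 on the log2 scale (SE 0.23 and 0.22), with an edgeR FDR of 0.331 and 0.3, so neither passed the test. Without MM1R Fer-1 + RSL3 replicate 2 they were -0.50 and -0.46, with an edgeR FDR of 0.515 and 0.498. Members lower in 6 of 6 passages numbered 11 (10.2%, against 6.62%) and those higher in 6 of 6 numbered 3 (2.78%, against 8.05%), namely LINC00537, LINC01089 and LINC02804. Over the 5 passages without that library, 15 were lower (13.9%, against 10.3%) and 4 higher (3.7%, against 11%).

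The smallest p-values for Fer-1 belonged, among members that were lower, to LINC02100 at -0.75 ± 0.26 (-0.81 without that library), LINC02245 at -0.88 ± 0.31 (-0.88) and LINC01679 at -0.52 ± 0.20 (-0.44). LINC02245 was at 0.46, 0.586 and 0.80 CPM in RSL3-treated MM1S cells and at 0.207, 0.219 and 0.315 CPM with Fer-1 as well. Among members that were higher they belonged to LINC02693 at 0.44 ± 0.17 (0.49), LINC02804 at 0.69 ± 0.27 (0.61) and LINC01881 at 0.38 ± 0.15 (0.28). The RefSeq table lists LINC02804 as a synonym of the protein-coding gene GPR89B, so which transcript its counts stand for is uncertain. The averaged edgeR FDR of these 6 lay between 0.257 and 0.313. LINC01881 is a member with a line difference, and its value in MM1R Fer-1 + RSL3 replicate 2, 5.51 CPM, stood above 4.04 and 3.44 CPM in the other libraries of that group.

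Against untreated cells, Fer-1 + RSL3 called LINC00861 higher (1 member, 0.926%, against 1.75% of all tested genes) and LINC01311 lower (1 member, against 0.413%) in MM1R. In MM1S it called LINC00673 higher (1 member, against 0.938%) and LINC01311 and LINC02245 lower (2 members, 1.85%, against 0.427%). LINC01311 was at 1.01, 1.04 and 0.765 CPM in MM1R and at 0.622, 0.492 and 0.786 CPM in MM1S with Fer-1 + RSL3, and its log2 fold changes against untreated cells were -1.14 ± 0.27 and -1.09 ± 0.29. These contrasts share their untreated libraries with the RSL3 contrasts, and the same untreated libraries chose the members. LINC02245 lies at the count minimum, with a median of 20 untreated counts. Such members tend to have been read high without treatment, so its call and the share of members lower are a description. Without MM1R Fer-1 + RSL3 replicate 2, the FDR of LINC00861 in MM1R was 0.0993, and LINC01311 was at -1.22 (FDR = 0.0408).

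The third comparison asks which members differed between MM1R and MM1S under RSL3, in libraries that did not choose them. Line differences can carry over from untreated cells, whose counts chose the members by a median over both lines. All tested genes passed another filter, so the shares set side by side here are a description. MM1R was higher for 5 called members (4.63%, against 2.77% of all tested genes), LINC00582, LINC01278, LINC00630, LINC00880 and LINC01018, and lower for 1, LINC01881 (0.926%, against 1.98%). With no fold threshold LINC00960 and LINC01679 were also higher and LINC00673 lower (7 members higher, against 5.17%, and 2 lower, against 4.01%). LINC00960 passed in 18 of 18 fits that left out 1 library, LINC00673 in 17 (FDR = 0.0546 without MM1R RSL3 replicate 2) and LINC01679 in 5 (FDR = 0.198 without MM1R RSL3 replicate 1). At an unadjusted p under 0.05, 21 were higher (19.4%, against 11.8%) and 2 lower (1.85%, against 11.6%). Libraries of the lines did not overlap for 21 members that were higher (19.4%, against 13.4%) and 3 that were lower (2.78%, against 12.6%). LINC00880 and LINC01018 were named after their values had been seen. Lines and passages cannot be told apart in this comparison, since no passage number is shared.

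LINC00582 gave the largest called difference. It lies on chromosome 1 at 231727038 to 231747836, within the annotated TSNAX-DISC1 readthrough gene and on the opposite strand. RSL3-treated MM1R cells had 8.60, 8.12 and 6.09 CPM and MM1S cells 2.10, 2.34 and 1.65 CPM, with no overlap, and the log2 difference was 1.90 ± 0.25 (edgeR FDR = 0.000206). Untreated cells had 9.51, 7.95 and 6.37 CPM in MM1R and 2.59, 3.03 and 2.76 CPM in MM1S. With Fer-1 + RSL3 the MM1R libraries were at 7.23, 4.06 and 4.53 CPM.

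LINC01278, on chromosome X at 62442872 to 62780975, had 24.4, 18.8 and 21.1 CPM in MM1R and 8.81, 7.83 and 6.83 CPM in MM1S under RSL3 (log2 difference 1.45 ± 0.19, edgeR FDR = 0.000247). Its level was nearly constant over treatments, with means of 20.8 ± 1.29 and 21.4 ± 2.80 CPM in untreated and RSL3-treated MM1R cells. In MM1R Fer-1 + RSL3 it had 22.7 and 21.1 CPM in replicates 1 and 3 but 14.0 CPM in replicate 2, the library that stood apart, which lies between the levels of the lines. Its annotated span overlaps SPIN4 on the same strand, for which the log2 difference between the lines was -0.25.

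LINC00630, also on chromosome X, had 3.17, 2.82 and 2.22 CPM in MM1R and 1.31, 0.959 and 0.96 CPM in MM1S (1.35 ± 0.34, edgeR FDR = 0.0205). LINC00880 had 1.40, 1.57 and 1.77 CPM against 0.526, 0.533 and 0.587 CPM (1.51 ± 0.43, FDR = 0.0343), but its untreated MM1S libraries, 1.55, 0.784 and 0.452 CPM, overlapped those of MM1R. LINC01018 had 1.24, 2.38 and 2.28 CPM against 0.657, 0.693 and 0.534 CPM (1.64 ± 0.44, FDR = 0.0281). These 3 calls were lost when MM1R RSL3 replicate 2, MM1S RSL3 replicate 2 or MM1S RSL3 replicate 3 was left out, which left 3 called members, and that of LINC00630 also without MM1R RSL3 replicate 1.

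LINC01881, on chromosome 2 at 243037045 to 243072958, was the member called higher in MM1S. Under RSL3 it had 6.84, 6.93 and 7.52 CPM in MM1S and 3.23, 2.60 and 3.42 CPM in MM1R (log2 difference -1.20 ± 0.22, edgeR FDR = 0.00257). The next in that direction were LINC00673 at -0.68 ± 0.15 (FDR = 0.00965), LINC01128 at -0.35 ± 0.16 (FDR = 0.216) and LINC00565, now SWINGN, at -0.82 ± 0.40 (FDR = 0.228). On the other side LINC00960 differed by 0.88 ± 0.20 (FDR = 0.0125). Over all members the median line difference under RSL3 was 0.14, against -0.03 for all tested genes, with 66 members above 0 (61.1%, against 46%). It was -0.03 with 50 above 0 without MM1R RSL3 replicate 1 and 0.35 with 76 above 0 without MM1S RSL3 replicate 1.

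**Figure D4:**
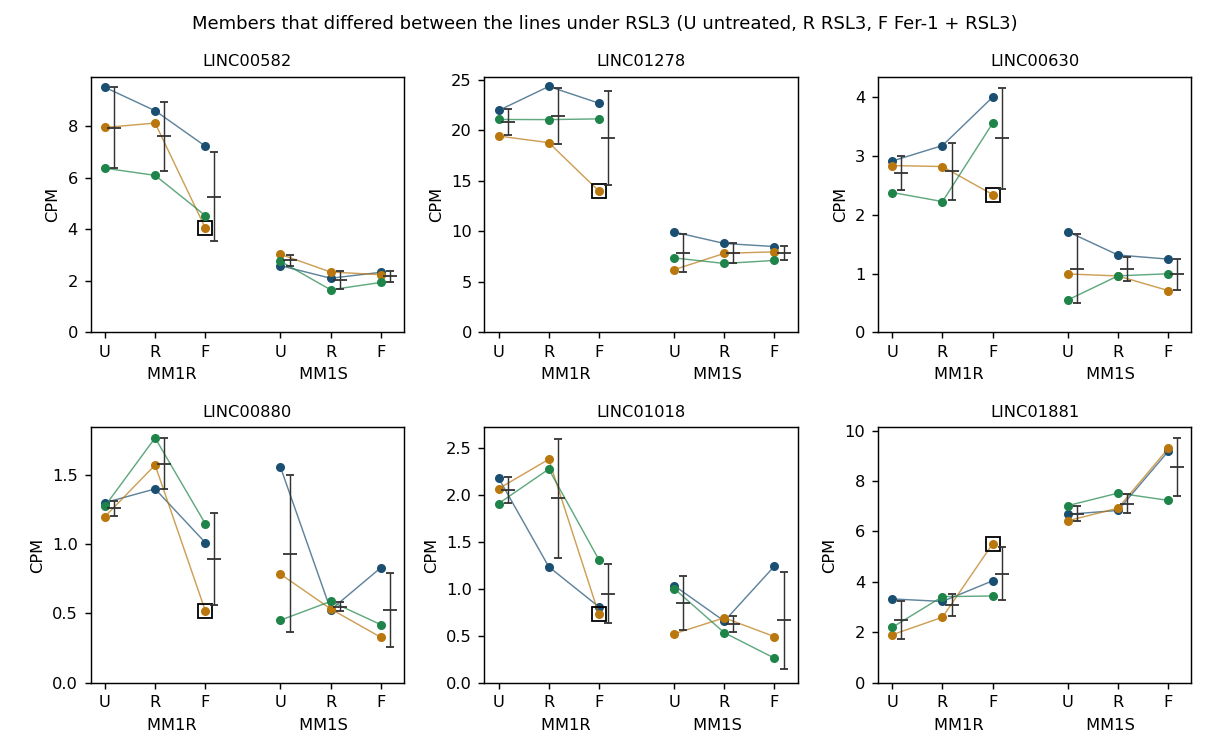
Level in CPM (vertical axis) of the 6 members called between MM1R and MM1S under RSL3, in untreated (U), RSL3 (R) and Fer-1 + RSL3 (F) libraries; points are libraries joined within a passage (blue passage 4 or 16, orange 6 or 22, green 7 or 23), bars are mean and SD, and the open square is MM1R Fer-1 + RSL3 replicate 2. That library lies below the others of its group for LINC01278 and above them for LINC01881.

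Position was not used by the rule. A start in hg19 could be given for 102 members, and the median distance to the nearest protein-coding start was 47636 bp, with 12 members within 1 kb, 24 within 10 kb and 28 over 100 kb away. Only protein-coding genes whose current symbol is in the count table were considered, so renamed genes drop out and distances can be too large. Within 1 kb, 8 members lay head to head with a protein-coding gene, among them LINC01136 (176 bp from BTG2), LINC01134 (54 bp from C1orf174), LINC01137 (137 bp from ZC3H12A), LINC01089 (103 bp from SETD1B) and LINC01521 (431 bp from PATZ1). Overlap was sought for the 98 members with an annotated span in hg19. A protein-coding gene overlapped 23 of them, on the same strand for 7 and on the opposite strand for 16. The use of strand in counting is not given in the sources used here, so values of overlapping members are uncertain.

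Responses to RSL3 were set beside those of the neighbours. Over the 71 members whose nearest protein-coding gene was tested, 36 had the same sign, and the averaged log2 fold changes had Pearson's r = 0.177 and Spearman's rho = 0.261, a description across genes that share libraries. JUN, a component of AP-1, rose by 4.31 ± 0.59 on the log2 scale, while LINC01358, whose start lies 149595 bp away, was at -0.06. BTG2 had 0.01 ± 0.08 where LINC01136 had 0.79. That average joins opposite signs, 0.21 ± 0.11 in MM1R and -0.19 ± 0.11 in MM1S (edgeR FDR = 0.335 and 0.372). BTG2 was higher with RSL3 in 3 passages of MM1R and in 0 of MM1S. With Fer-1 + RSL3 against RSL3, however, BTG2 fell by 0.54 (edgeR FDR = 0.015) and LINC01136 was at -0.56. By line BTG2 fell by 0.67 in MM1R and by 0.41 in MM1S. In MM1R Fer-1 + RSL3 it had 586 CPM in replicate 2, the library that stood apart, and 625 and 627 CPM in replicates 1 and 3. Without that library LINC01136 was at -0.50, and no such fit is given for BTG2. Against untreated cells, BTG2 with Fer-1 + RSL3 was at -0.46 in MM1R and -0.60 in MM1S (edgeR FDR = 0.0185 and 0.0053). LINC01136 was at 0.37 and 0.09 in that comparison, so only BTG2 lay below untreated cells.

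TNFAIP3 fell by 1.13 ± 0.15 (edgeR FDR of the average 0.000162) and LINC02528 was at -0.45 ± 0.18 (FDR = 0.0938), lower in 6 of 6 passages. LRATD2 rose by 1.03 and LINC00861, 265690 bp away, by 1.44. LINC02354 overlaps HDAC7 on the opposite strand, and the values were -1.16 ± 0.40 and -0.44 ± 0.11. LINC01011 overlaps NQO2, a quinone reductase gene, on the same strand and from nearly the same start, with 0.37 and 0.59. The pairs in this paragraph were picked after their values had been seen, and each changed in the same direction. Over the 71 members above, only 36 shared the sign of their neighbour.

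**Figure D5:**
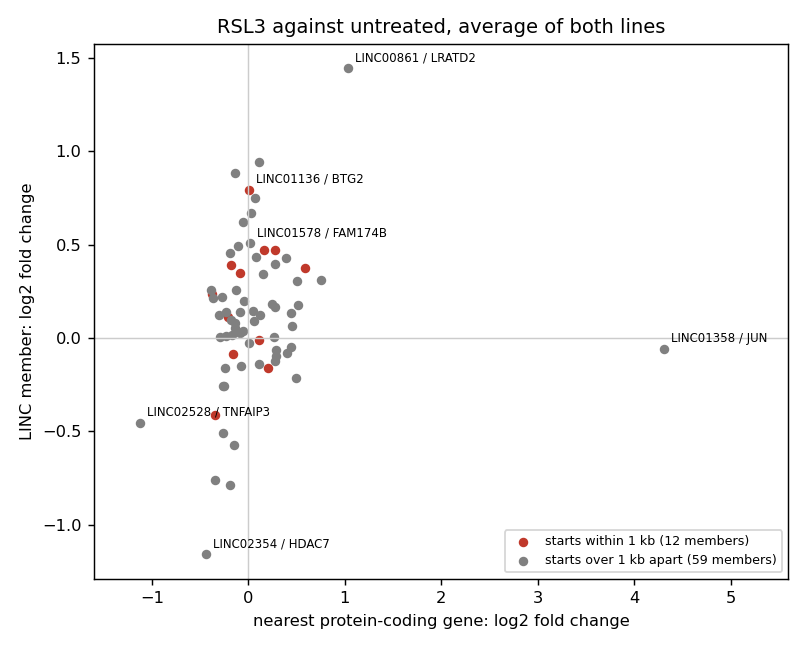
Averaged log2 fold change of RSL3 against untreated for a LINC member (vertical axis) and for its nearest protein-coding gene (horizontal axis), for 71 members, 1 point each; red points have starts within 1 kb. JUN lies far to the right of LINC01358 near 0.

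Other named long noncoding RNAs, which are no members since their symbols follow no LINC number, were set beside them. The list was chosen with earlier results of these data known, so its shares are a description and no independent evidence. Of 35 on the list, 20 were tested, and 3 were called higher in the average (15.0%, against 2.79% of all tested genes): NEAT1, the scaffold of nuclear paraspeckles, at 2.19 ± 0.31, LINC-PINT at 1.74 ± 0.33 and LUCAT1 at 1.53 ± 0.48 from at most 0.552 CPM in untreated libraries, while 0 were called lower. NEAT1 had 575, 393 and 374 CPM in untreated and 2488, 1008 and 1729 CPM in RSL3-treated MM1R cells. With no fold threshold 6 of the 20 were higher (against 8.7% of all tested genes) and 2 lower (against 6.81%). The 2 were MIR17HG at -0.89 ± 0.21 and DLEU1 at -0.92 ± 0.22 (edgeR FDR = 0.00946 and 0.00934). CYTOR rose by 0.74 ± 0.13 (edgeR FDR = 0.00156) and NORAD, which binds PUMILIO proteins, by 0.62 ± 0.10 (FDR = 0.000944). Of 10 LINC genes linked to ferroptosis, p53, cyclic AMP or DNA damage, 7 were in the count table and 1 was tested, the member LINC00472 (P53RRA). It had an averaged log2 fold change of -0.26 ± 0.42 for RSL3, with 0.22 in MM1R and -0.73 in MM1S. For Fer-1 it had 0.45 ± 0.41 (0.45 without MM1R Fer-1 + RSL3 replicate 2). Its untreated means were 0.604 ± 0.48 CPM in MM1R and 1.94 ± 0.81 CPM in MM1S.

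A minimum over RSL3 libraries would keep 4 genes that the untreated minimum left out. That choice gives them a median of at least 20 counts with RSL3 and below 20 without, so it fixes their direction in part and their values are a description. For LINC01588 the untreated libraries had 10, 14 and 6 counts in MM1R and 14, 10 and 9 in MM1S, and the RSL3 libraries 46, 13 and 29 in MM1R and 30, 20 and 18 in MM1S. The averaged log2 fold change was 1.38 ± 0.37, and LINC01431, LINC01484 and LINC01374 had 0.83 ± 0.32, 0.98 ± 0.34 and 0.51 ± 0.29.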

How the data were processed

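RNA was sequenced in 50 bp paired-end reads from 18 libraries. The authors checked reads with FastQC 0.11.5, aligned them to hg19 with STAR 2.7.3a and deposited raw counts per gene for 43735 gene symbols, which were used here. The counting tool, annotation and use of strand are not given in the sources used here. A deposited table of normalized values was not used. Total counts were 17635438 to 19368343 per library. All columns were mapped by their labels.

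With R 4.3.3 and edgeR 4.0.16, genes were filtered with filterByExpr (minimum count 10, 14281 kept), scaled with TMM and fitted in 1 model of 6 group means, which leaves 12 residual degrees of freedom, with a quasi-likelihood test for each contrast. A member was called at a log2 fold change beyond 1 if its FDR was below 0.05. Standard errors are the size of the log2 fold change divided by the square root of F. Passages pair the libraries within a line, from the labels: deviations from group means correlated with a median of 0.250 in MM1R (0.0338 to 0.516) and 0.416 in MM1S (0.216 to 0.681, 9 pairs each). Alternatives were a passage block (8 residual degrees of freedom), DESeq2 1.42.0, RLE scaling, no filter, no fold threshold, other count minimums and leaving out each library. The fit was first tested on simulated data.

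Positions came from GENCODE v44 lifted to GRCh37, joined by symbol, and promoters from a RefSeq table. The members, gene lists and motifs were chosen with earlier results of these data known. Members to be given with values were those called for RSL3, the 5 with the highest untreated CPM, listed genes and 2 at the count minimum. Those with the smallest p were also chosen, for Fer-1 (3 in each direction), between lines (4 in each direction) and for the interaction (2). Other members given with values, among them LINC00339, LINC00494, LINC01011, LINC02354 and LINC02528, fit none of these and were named after their values had been seen. Of 9 LINC symbols later renamed as small-protein genes, none was analysed here. LINC01518 was left out by the rule.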

Additional observations from a re-analysis of the deposited data

How the results depend on the processing

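The count of members called for RSL3 in MM1R was 1 in the report, 2 with no filter on low counts, 3 with DESeq2, 3 with no fold threshold and 0 to 3 when 1 library was left out. With the passage as a replicate block it was 4, and in the average of both lines 2 in place of 1. In the average it was 2 with no filter, 2 with DESeq2, 9 with no fold threshold and 1 to 3 when 1 library was left out. In MM1S it was 2 in the report and 0 to 3 when 1 library was left out, with 0 without MM1S untreated replicate 2 or MM1S RSL3 replicate 1. The line difference under RSL3 had 6 calls in the report, 10 with no filter and 3 to 7 when 1 library was left out. It could not be fitted with a passage block, because passages are nested in lines. Over all tested genes in MM1R, the block called 2.36% higher and 0.511% lower, against 1.06% and 0.14% in the main fit. With no fold threshold those shares were 2.0% and 1.36%. No share over all genes is given here for no filter, DESeq2 or the fits that left out 1 library. The counts of calls are therefore not read as a change in the members. The block changed no call for Fer-1 + RSL3 against RSL3 or for the difference between the lines' responses, which stayed at 0 members under every alternative run (0 to 0 when 1 library was left out). The number of members was 58 with a minimum of 50 counts, 135 with 10 and 102 with the RSL3 libraries. Of 1848 recomputed RSL3 log2 fold changes of named members, 1693 kept direction and side of an FDR of 0.05, 50 lost it and 29 gained it. Another 76, none past the threshold before or after, changed sign, and 0 past it did. The cause was not tested. The 54 members with the lower levels had a median standard error of 0.27 for the averaged RSL3 change, against 0.18 for the 54 others. The alternatives for the difference between the lines' responses, and the medians without 1 library or within passages, were chosen after seeing the data.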
